A study of Mus musculus with 17 samples.

Results

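A set of 9 genes listed as markers of large myelinated sensory neurons was followed through bulk RNA sequencing. The tissue was mouse dorsal root ganglia (L4 to L6), where the cell bodies of sensory neurons sit. The 9 genes are Pvalb, Runx3, Ntrk3, Etv1, Spp1, Ntrk2, Calb1, Ret and Nefh, a list of marker genes taken by symbol from the 78298 gene identifiers of the count tables. Each symbol matched 1 identifier, and all 9 were among the 23972 genes that passed the filter on low counts. There were 17 libraries: 5 sham-operated wild type (WT), 5 wild type with CCI, 4 sham-operated Twik1-KO and 3 Twik1-KO with CCI, numbered 2 to 4. CCI, short for chronic constriction injury, is a nerve-injury model in which the sciatic nerve is tied loosely. Twik1 is a background potassium channel encoded by Kcnk1. Every library carries day 30 under its batch label. The sources used here do not give the deleted part of Kcnk1, the strain, sex or age of the mice, or whether ganglia of several animals were pooled. Nothing in the labels ties a library to its own animal; the p-values therefore describe the spread among these samples, which may be technical.

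Large myelinated neurons are the touch and body-position sensors of the ganglion. Proprioceptors, which innervate muscle spindles and tendon organs, depend on the neurotrophin NT-3 and its receptor TrkC (Ntrk3). They use the transcription factors RUNX3 and ETV1 during development, and contain the calcium buffer parvalbumin (Pvalb). Low-threshold mechanoreceptors, which sense touch on the skin, include neurons that carry TrkB (Ntrk2), the receptor of BDNF, and neurons that carry RET, the signalling receptor of the GDNF family. In development RUNX3 is known to restrain Ntrk2 in TrkC neurons.

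Because 2 of the markers are transcription factors, the start regions of the members were searched for the letters that such factors are known to bind. The RefSeq promoter table (build GRCm38.p6, 250 bases before to 50 after a start site) held 5 of the 9 members, and Ntrk3, Calb1, Ret and Nefh had no entry. The most upstream window of each is printed 5′ to 3′ on the gene's strand. Capitals mark TGTGGT or its reverse ACCACA, a core of RUNX sites, and CGGAAG or its reverse CTTCCG, a core of ETS-family sites, the family of ETV1. These windows lie at chr15:78206351-78206650 (Pvalb, minus strand), chr4:135120395-135120694 (Runx3, plus strand), chr12:38779832-38780131 (Etv1, plus strand), chr5:104434861-104435160 (Spp1, plus strand) and chr13:58806319-58806618 (Ntrk2, plus strand).
Pvalb: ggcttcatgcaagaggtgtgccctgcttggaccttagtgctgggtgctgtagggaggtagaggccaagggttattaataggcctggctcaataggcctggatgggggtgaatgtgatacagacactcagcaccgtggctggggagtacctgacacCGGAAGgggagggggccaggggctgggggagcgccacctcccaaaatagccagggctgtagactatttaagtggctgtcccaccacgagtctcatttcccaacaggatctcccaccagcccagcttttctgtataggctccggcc
Runx3: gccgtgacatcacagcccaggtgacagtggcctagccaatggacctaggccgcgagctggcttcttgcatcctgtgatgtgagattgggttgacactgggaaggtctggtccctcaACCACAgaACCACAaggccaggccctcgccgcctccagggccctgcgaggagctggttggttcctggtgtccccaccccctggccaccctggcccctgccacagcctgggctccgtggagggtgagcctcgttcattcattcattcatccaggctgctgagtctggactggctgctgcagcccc
Etv1: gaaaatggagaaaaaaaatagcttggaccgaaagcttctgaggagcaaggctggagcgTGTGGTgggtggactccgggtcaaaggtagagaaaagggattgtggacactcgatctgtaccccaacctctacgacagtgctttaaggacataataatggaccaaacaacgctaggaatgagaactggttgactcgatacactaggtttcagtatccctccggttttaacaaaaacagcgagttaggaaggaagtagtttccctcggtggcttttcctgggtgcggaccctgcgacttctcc
Spp1: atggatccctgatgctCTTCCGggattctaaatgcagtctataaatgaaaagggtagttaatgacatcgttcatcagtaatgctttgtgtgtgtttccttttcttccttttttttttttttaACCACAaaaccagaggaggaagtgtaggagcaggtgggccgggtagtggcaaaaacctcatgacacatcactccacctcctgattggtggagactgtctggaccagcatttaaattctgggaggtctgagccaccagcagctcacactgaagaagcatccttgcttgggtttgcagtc
Ntrk2: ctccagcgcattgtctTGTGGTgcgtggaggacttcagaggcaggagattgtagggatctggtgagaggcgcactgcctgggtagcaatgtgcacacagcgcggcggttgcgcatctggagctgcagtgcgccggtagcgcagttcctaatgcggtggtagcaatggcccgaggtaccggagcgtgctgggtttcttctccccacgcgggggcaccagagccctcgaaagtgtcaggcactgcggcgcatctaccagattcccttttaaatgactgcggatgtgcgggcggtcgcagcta

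The table holds 9 windows for these 5 genes. The 4 not printed, at later starts of Pvalb, Runx3, Etv1 and Spp1, hold 0 RUNX and 0 ETS matches. The RUNX letters thus occurred in 4 of the 9 windows, all among the 5 printed: 2 times in Runx3, starting at bases 117 and 125 counted from the 5′ end of the window, and 1 time each in Etv1 (from base 59), Spp1 (from base 123) and Ntrk2 (from base 17). The ETS letters occurred in Pvalb (from base 156) and Spp1 (from base 17), and no ETS and RUNX matches overlapped. Of 32851 promoter windows of 300 bases in the table, counted over all starts and not the most upstream alone, 16.8% held the RUNX letters and 16.9% the ETS letters. A match is a run of letters, not a measured binding site.

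Gene counts per library ranged from 52.5 to 73.6 M (10 to the power 6), and every member was counted at least 266 times in each library. Levels are given in CPM, counts per M after library scaling, with the SD between libraries. The tissue label was checked with 12 pan-neuronal genes, all of which were tested; their summed level was 9290 to 11700 CPM. Of 11 spinal cord and motor neuron markers 6 did not pass the filter on low counts, with Chat at most 0.311, Mnx1 at most 0.128 and Slc18a3 at most 0.115 CPM. The other 5, Slc5a7, Isl2, Gad1, Gad2 and Gfap, passed it. The summed level of this list was 240 to 358 CPM over the 17 libraries, and which cells these counts come from was not tested. Kcnk1 (ENSMUSG00000033998) was lower in the libraries labelled knockout over both treatments, by −0.47 ± 0.091 (SE) on the log2 scale (edgeR adjusted p = 0.00746), but was still counted at 75.1 to 114.5 CPM there, so the genotype is named by its label. The injury-induced factor Atf3 stood at 9.41 to 16.7 CPM in sham wild-type libraries, 107.9 to 275.8 after CCI in wild type and 93.8 to 229.5 after CCI in knockout-labelled libraries. Within the sham knockout-labelled group, Atf3 was 140.6 CPM in library 1, 103.3 in library 2, 11.1 in library 3 and 13.2 in library 4, so results that turn on this group are also given without libraries 1 and 2. A number in the table names is the same for the 9 sham libraries and differs between the CCI groups. What it stands for is not stated. If it is a batch, batch cannot be told apart from injury, nor from the genotype label after CCI. The interaction and the mean genotype effect use the same CCI libraries and share this limit.

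In GRCm39 the genes lie at chr15:78075314-78091149 (Pvalb, ENSMUSG00000005716), chr4:134847952-134905301 (Runx3, ENSMUSG00000070691), chr7:77825707-78387760 (Ntrk3, ENSMUSG00000059146), chr12:38828851-38920483 (Etv1, ENSMUSG00000004151) and chr5:104582165-104589235 (Spp1, ENSMUSG00000029304). The others lie at chr13:58954176-59281784 (Ntrk2, ENSMUSG00000055254), chr4:15881155-15908085 (Calb1, ENSMUSG00000028222), chr6:118128706-118174769 (Ret, ENSMUSG00000030110) and chr11:4888740-4898130 (Nefh, ENSMUSG00000020396). Counts cover the whole gene, so isoforms, such as the receptor forms of Ntrk2 and Ntrk3 without a kinase domain, are not told apart.

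The members spanned a wide range of abundance in the resting wild-type ganglion. Per kb of merged exons, the sham wild-type mean was 644 ± 144 CPM per kb (SD, n = 5) for Nefh, the heavy neurofilament chain that stiffens large axons. Next came Spp1, the secreted phosphoprotein osteopontin, with 146 ± 20.2 CPM per kb, and Ret with 78.4 ± 6.45. The calcium buffers Pvalb (26.6 ± 5.46) and Calb1, which encodes calbindin (14.8 ± 1.17), lay below, followed by Etv1 with 11.2 ± 2.24 CPM per kb. Ntrk3 (4.83 ± 0.483), Ntrk2 (4.27 ± 0.246) and Runx3 (1.43 ± 0.341 CPM per kb) were the lowest. The ranges of neighbours in this order did not overlap, except those of Ntrk3 (4.23 to 5.21) and Ntrk2 (3.84 to 4.45). The order of this pair depends on the length used: per kb of the longest transcript, Ntrk2 stood at 14.1 and Ntrk3 at 7.64 CPM per kb. Etv1 (23.1) and Calb1 (23.6) then lay side by side.

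**Figure D1:**
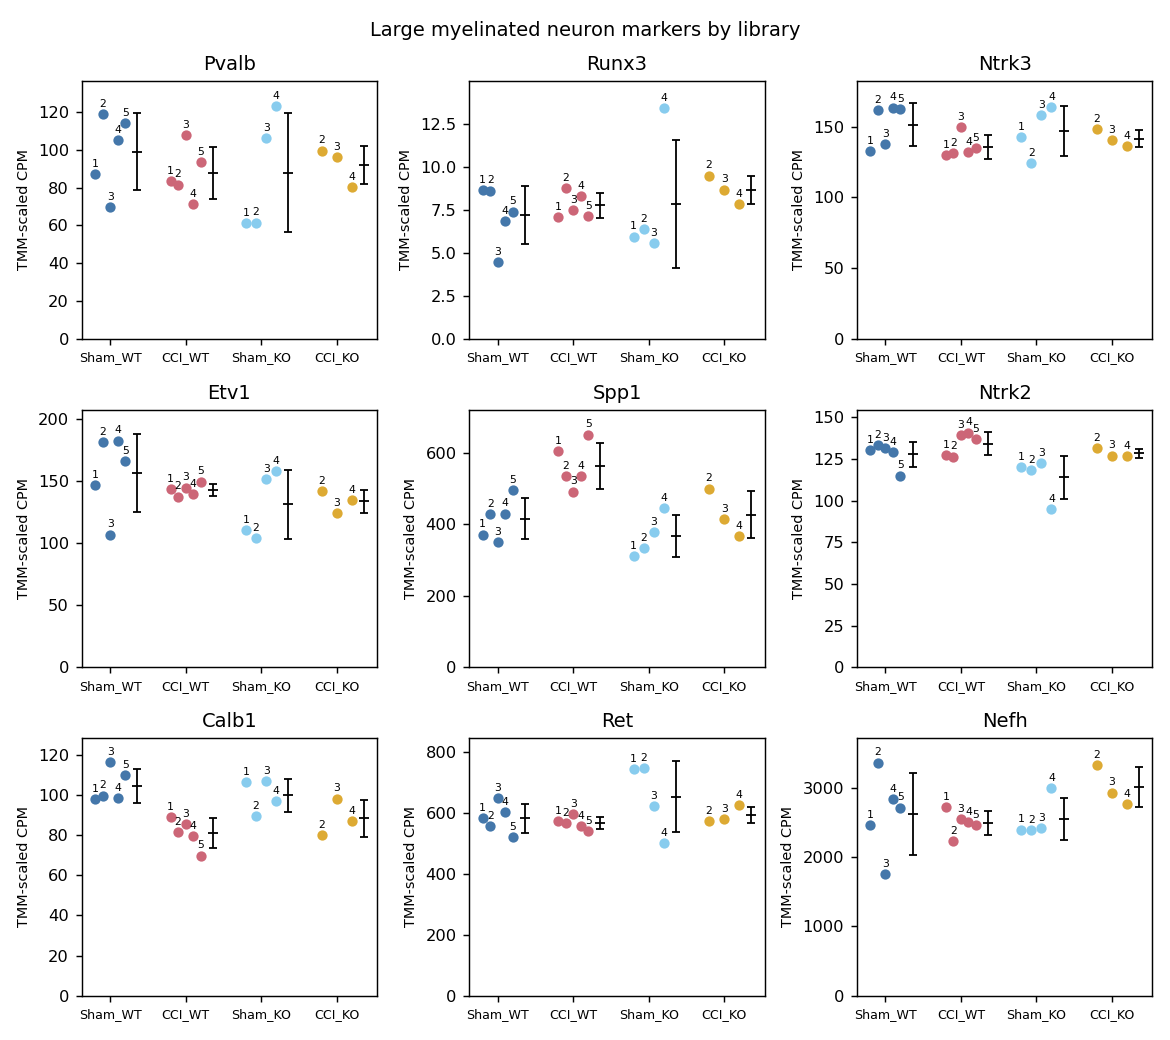
Level of each of the 9 markers in every library (y axis, TMM-scaled CPM from 0) by group (x axis); points are libraries with their number, and the bar to the right of each group is the mean with its SD. Calb1 is the marker whose 5 CCI wild-type libraries (69.9 to 89.2 CPM) all lie below the 5 sham wild-type libraries (98.3 to 116.7), and the knockout-labelled sham libraries spread widely for Pvalb, Runx3 and Ret.

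The first comparison asks what nerve injury does to these markers in wild-type ganglia. Of the 9 members, edgeR called 1, Calb1, which fell, while 3.06% of all 23972 genes were called; the median log2 change of the members was −0.08 against −0.01 for all genes. Calb1 stood at 98.3, 99.8, 116.7, 98.4 and 109.9 CPM in sham libraries 1 to 5 and at 89.2, 81.5, 85.5, 79.6 and 69.9 CPM in CCI libraries 1 to 5. The lowest sham library thus lay above the highest CCI library, and Calb1 was the sole member without overlap, a property of 4.84% of all genes here. The log2 change was −0.37 ± 0.072 (SE; edgeR adjusted p = 0.00387), a fall of 22.5%. Calb1 kept its call in the 26 alternatives, from −0.50 to −0.32, with adjusted p-values from 2.19e-06 to 0.0172. In bulk tissue, fewer cells of a type and less RNA per cell cannot be told apart. Which neurons the Calb1 counts come from was not tested, so its fall is not read as one of large neurons.

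Spp1 (12.7% of whose exon bases are shared with the annotated gene Gm42793) had the largest positive change of the members and missed the threshold. Its level was 371.2, 429.2, 349.6, 430.1 and 496.3 CPM in sham wild-type libraries 1 to 5, and in CCI libraries 606.2, 536.2, 491.7, 534.6 and 651.1 CPM. The groups met in 1 place only, where sham library 5 stood above CCI library 3. The log2 difference was 0.44 ± 0.12 (SE; edgeR adjusted p = 0.0716), with adjusted p-values from 0.0016 to 0.199 over the 26 alternatives. It passed without sham wild-type library 5 (0.51, adjusted p = 0.0436), without sham knockout-labelled library 4 (0.44, adjusted p = 0.0414), with the 2 compared groups alone, and by DESeq2 and limma-voom. Macrophages also make osteopontin, and all 12 macrophage markers were tested: 6 rose and 0 fell, among them, as log2 changes with their SE, Ms4a7 (1.92 ± 0.26), Trem2, a lipid receptor (1.83 ± 0.32), Cx3cr1, a chemokine receptor (1.17 ± 0.25), and Csf1r, the CSF1 receptor (0.91 ± 0.19). The summed macrophage level was 63.5 to 120 CPM in sham and 94.4 to 197 after CCI; CCI library 3, the lowest of its group in Spp1, was also the lowest in these markers and in the summed axon injury genes (1560 CPM against 2320 to 2660 in the other 4). Bone, which makes osteopontin too, gave a summed level of 31.1 to 44.7 CPM in sham and 38.1 to 51.1 after CCI, and of 9 tested bone and cartilage markers 1 rose, the transcription factor gene Runx2 (0.83 ± 0.21). The part of these cells in the Spp1 difference was not tested.

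Among the other proprioceptor markers none passed the threshold. Ntrk3 ranged from 132.7 to 163.4 CPM in sham and from 129.6 to 149.9 after CCI, a difference of −0.16 ± 0.071 on the log2 scale (edgeR adjusted p = 0.292) with overlapping groups. It passed under 1 of the 26 alternatives, scaling to pan-neuronal genes (−0.28, edgeR adjusted p = 0.0162), which moved the median of all genes to −0.13. This scaling counts Stmn2 and Tubb3, pan-neuronal genes that rose after injury in wild type (log2 changes of 0.40 and 0.36). Pvalb held 87.2, 119.1, 69.9, 105.0 and 114.1 CPM in sham libraries 1 to 5 and 83.6, 81.6, 108.0, 71.4 and 93.6 after CCI. The CCI libraries lay inside the sham range, with a 95% interval of the log2 difference from −0.63 to 0.28. Etv1 (106.8 to 182.6 CPM in sham, 137.5 to 149.6 after CCI) had an interval from −0.43 to 0.17 and Runx3 (4.47 to 8.65 and 7.08 to 8.74 CPM) from −0.32 to 0.54. For both genes sham library 3 was the lowest of the group and the CCI libraries lay close together. The receptor genes Ntrk2 and Ret were measured more tightly. The interval was −0.06 to 0.20 for Ntrk2 (115 to 133.3 and 126.5 to 140.9 CPM) and −0.22 to 0.14 for Ret (519.8 to 646.7 and 539.8 to 594 CPM). Bulk counts do not tell which neurons these transcripts come from. Nefh held 1750 to 3359 CPM in sham and 2223 to 2717 after CCI, with an interval from −0.37 to 0.22. Under the pan-neuronal scaling the differences of Ntrk2 (−0.05) and Runx3 (−0.01) changed sign. A p that misses the threshold does not show that these levels were the same.

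**Figure D2:**
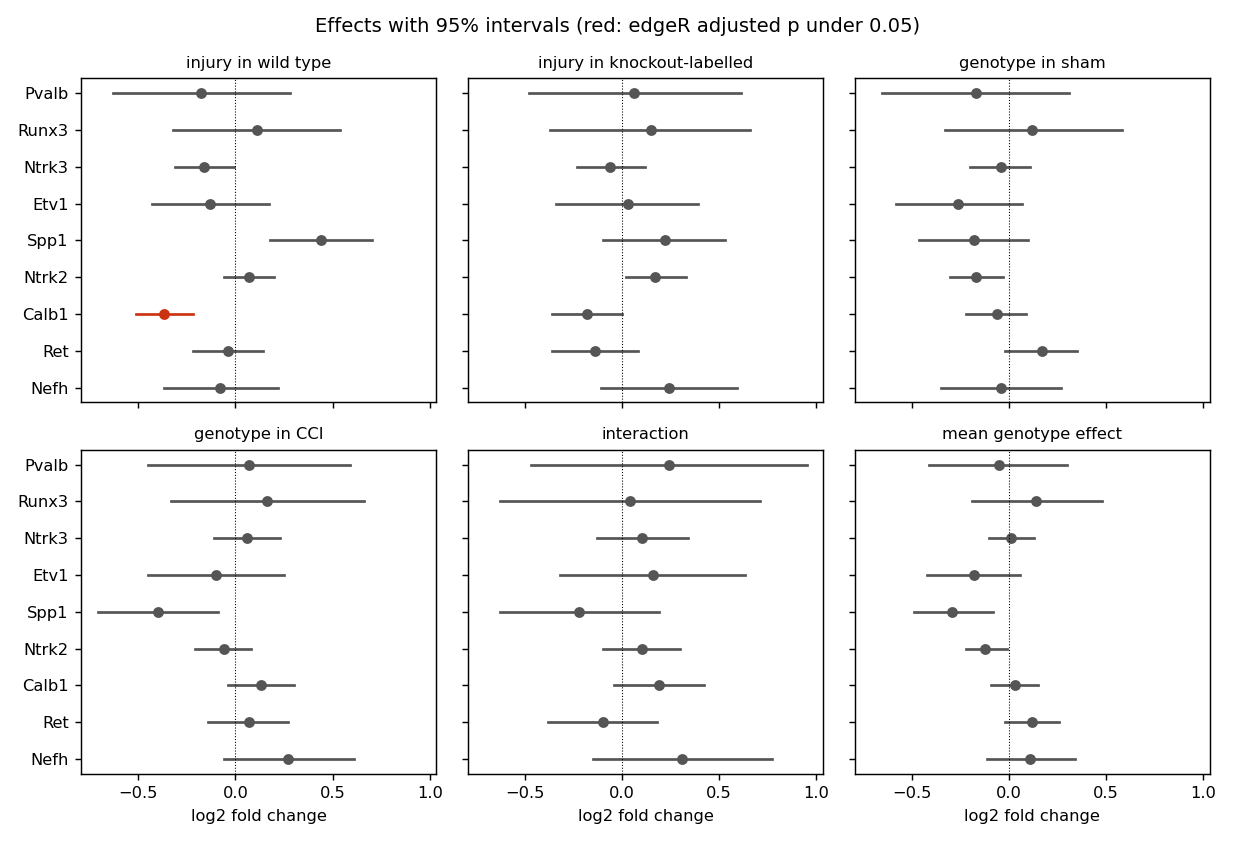
Log2 fold change (x axis) of the 9 markers (y axis) in the 6 comparisons, with 95% intervals from the edgeR fit; red marks the edgeR adjusted p under 0.05. Calb1 in the wild-type injury comparison (−0.37) is the red point, and the intervals of Pvalb, Runx3 and Etv1 are wider than those of Ntrk2, Ntrk3 and Calb1.

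Other genes of the same neurons and their signalling partners give the context. Of 18 other large-neuron genes, edgeR called 0 after injury in wild type, with a median log2 change of −0.13. At an unadjusted p under 0.05 stood 3 of them, against 13.8% of all genes. The smallest p-values were those of Mafa, a transcription factor of mechanoreceptors (−0.55 ± 0.17, edgeR adjusted p = 0.0781), and Cacna1h, the T-type calcium channel of D-hair afferents (−0.28 ± 0.11, edgeR adjusted p = 0.182). Of 6 neurofilament partners of Nefh, edgeR called 0, with 0 at an unadjusted p under 0.05; the smallest p-values were those of the linker protein gene Plec (0.08 ± 0.057, edgeR adjusted p = 0.639) and the filament gene Ina (−0.07 ± 0.067, edgeR adjusted p = 0.775). Of 15 markers of unmyelinated neurons 3 fell and 0 rose, among them Prdm12, a regulator of nociceptor identity (−0.35 ± 0.074), and the sodium channel gene Scn10a (−0.27 ± 0.074), with a list median of −0.29. The difference between these lists was not tested. Of 12 pan-neuronal genes 2 rose, the microtubule genes Stmn2 (0.40 ± 0.054) and Tubb3 (0.36 ± 0.062). Of 8 satellite glia markers 3 rose, Cdh19 (0.56 ± 0.11), Ednrb, an endothelin receptor (0.32 ± 0.085), and Fabp7, a fatty acid binding protein (0.55 ± 0.13).

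Of 14 tested ligands and co-receptors of the Trk and RET receptors, 1 rose and 2 fell in wild type, with a median of 0.09; the values of 1 rising and 1 falling gene are given. Gfra1, the co-receptor that lets RET bind GDNF, rose by 1.03 ± 0.17 (edgeR adjusted p = 0.00369), from 89.0 ± 11.9 to 182 ± 28.9 CPM (SD, n = 5), while Ret itself showed −0.04 ± 0.085. Gfra4, the co-receptor for persephin, changed by −0.32 ± 0.083 (edgeR adjusted p = 0.0277), from 31.4 ± 3.34 to 25.1 ± 2.22 CPM.

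**Figure D3:**
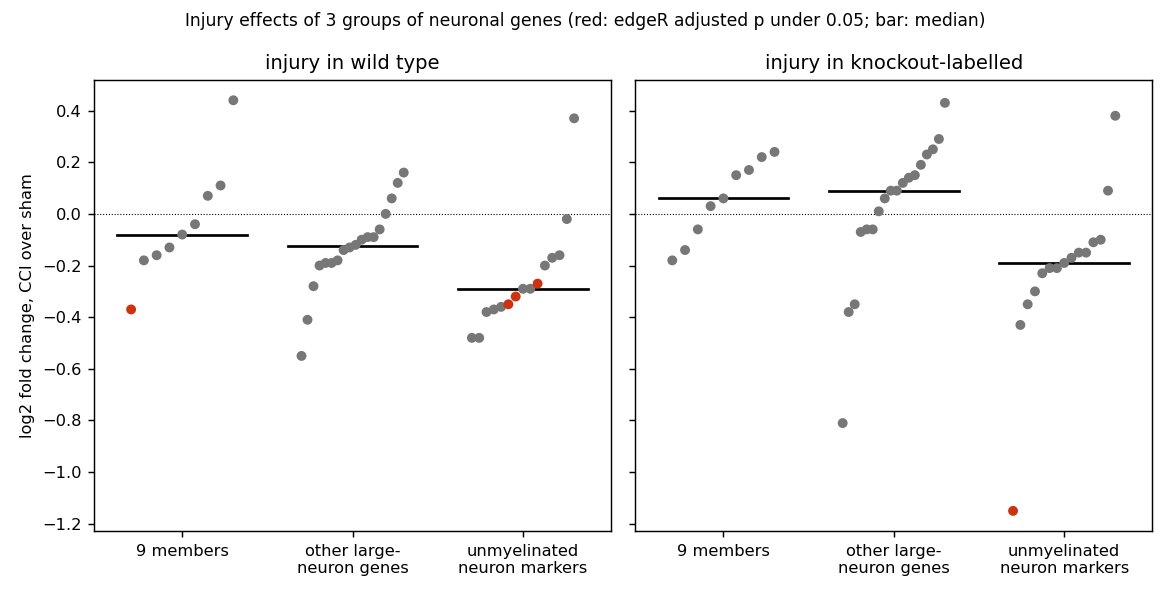
Log2 fold change of CCI over sham (y axis) for the 9 markers, 18 other large-neuron genes and 15 unmyelinated neuron markers (x axis), in wild type on the left and in knockout-labelled libraries on the right; each point is a gene, the bar is the list's median and red marks the edgeR adjusted p under 0.05. In wild type the medians are −0.08, −0.13 and −0.29 in that order, and under the knockout label 0.06, 0.09 and −0.19. The plot uses all libraries. Leaving out Sham_KO_1 and Sham_KO_2 gives right-hand medians of −0.13 for the 9 markers, −0.03 for the other large-neuron genes and −0.12 for the unmyelinated markers.

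The second comparison asks the same in libraries labelled Twik1-KO. Here edgeR called 0 of the 9 members, against 0.0834% of all genes, and DESeq2 and limma-voom called 0 members too. At an unadjusted p under 0.05 stood 1 member, against 8.63% of all genes. The count over all genes turned on the sham group. Without sham libraries 1 and 2 edgeR called 147 genes instead of 20, and still 0 members. Of 15 tested axon injury genes, 0 were called with these 2 libraries and 10 rose without them. Calb1 stood at 106.4, 89.7, 107.1 and 96.9 CPM in sham libraries 1 to 4 and at 80.1, 98.3 and 87.2 CPM in CCI libraries 2 to 4. The groups overlapped through CCI library 3, and the log2 difference was −0.18 ± 0.087 (SE; edgeR adjusted p = 0.584). The difference from the wild-type effect was itself tested, as the interaction, and was 0.19 ± 0.11 (edgeR adjusted p = 0.896, interval −0.04 to 0.42). Ntrk2 was the one member whose libraries did not overlap, a property of 7.56% of all genes in this comparison. It held 120, 118.2, 122.8 and 94.8 CPM in sham libraries 1 to 4 and 131.6, 127.1 and 126.6 CPM after CCI, a log2 difference of 0.17 ± 0.075 (edgeR adjusted p = 0.510). Spp1 (310.4 to 445.9 and 368.1 to 500 CPM) differed by 0.22 ± 0.15 (edgeR adjusted p = 0.759) and by 0.05 without sham libraries 1 and 2 (edgeR adjusted p = 0.962). Sham library 4, the highest of its group in Spp1, held 96.2 CPM of bone and cartilage markers, against 31.1 to 34.8 in the other sham libraries of this label; the part of bone was not tested.

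The spread of the sham group touched this comparison. Pvalb was 61.1 CPM in sham library 1, 61.5 in library 2, 106.1 in library 3 and 123.0 in library 4. The libraries with high Atf3 were thus the low ones, and both lay below the lowest of the 5 sham wild-type libraries (69.9 CPM). Without libraries 1 and 2 the injury difference of Pvalb went from 0.06 ± 0.25 to −0.32 ± 0.22 (edgeR adjusted p = 0.711) and that of Etv1 from 0.03 to −0.21 (edgeR adjusted p = 0.761). For Ret it went from −0.14 to 0.08 (edgeR adjusted p = 0.825). Runx3 went from 0.15 ± 0.25 to −0.13 ± 0.28 (edgeR adjusted p = 0.932), and to 0.54 ± 0.20 without library 4 (edgeR adjusted p = 0.288). No direction of these 4 genes is therefore drawn from this comparison. Calb1 (−0.20), Ntrk2 (0.24), Ntrk3 (−0.18) and Nefh (0.15) kept their sign without both libraries. The median of the 9 members went from 0.06 to −0.13, the value of Runx3. The median of the 18 other large-neuron genes went from 0.09 to −0.03, and that of the 15 unmyelinated neuron markers from −0.19 to −0.12. In the latter list Nppb, a peptide of itch neurons, fell (−1.15 ± 0.22, edgeR adjusted p = 0.0483), and without both libraries 0 of the 15 were called.

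The interaction over both labels called 0 of the 9 members, and 0% of all genes. At an unadjusted p under 0.05 stood 1407 genes, 5.87% of all, and 0 members. DESeq2 called 28 genes and limma-voom 4, with 0 members among them. The widest intervals were those of Pvalb (−0.47 to 0.95) and Runx3 (−0.63 to 0.71), and the narrowest those of Ntrk2 (−0.10 to 0.30), Calb1 and Ntrk3 (−0.13 to 0.34). Without sham knockout-labelled libraries 1 and 2 edgeR still called 0 members, but several signs changed. Pvalb went from 0.24 to −0.14, Runx3 from 0.04 to −0.24, Etv1 from 0.16 to −0.08, Ntrk3 from 0.10 to −0.03 and Ret from −0.10 to 0.12. Spp1 went from −0.22 to −0.39, and Ntrk2, Calb1 and Nefh stayed positive. No direction of the genes that changed sign is drawn.

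The third comparison asks how the markers differ by genotype label without injury. edgeR called 0 of the 9 members in sham, against 1.0% of all genes, and DESeq2 and limma-voom called 0 members. At an unadjusted p under 0.05 stood 1 member, against 11.4% of all genes. Without sham knockout-labelled libraries 1 and 2 edgeR called 37 genes instead of 240. No member was free of overlap between the labels, against 3.21% of all genes. Ret stood at 581.5, 555.8, 646.7, 601.8 and 519.8 CPM in sham wild-type libraries 1 to 5 and at 742.0, 744.8, 620.7 and 499.5 CPM in sham knockout-labelled libraries 1 to 4. Libraries 1 and 2 were the highest of all 17 and library 4 the lowest of all 17. The log2 difference was 0.17 ± 0.09 (edgeR adjusted p = 0.533). It was 0.27 ± 0.064 without library 4 (edgeR adjusted p = 0.0198) and −0.05 ± 0.076 without libraries 1 and 2 (edgeR adjusted p = 0.952). Etv1 held 146.8, 181.1, 106.8, 182.6 and 166.0 CPM in sham wild type and 110.7, 104.2, 151.5 and 158.0 in sham knockout-labelled libraries. Again libraries 1 and 2 were low; the difference was −0.26 ± 0.15 (edgeR adjusted p = 0.587) with them and −0.01 ± 0.15 without them. Pvalb changed sign, from −0.17 ± 0.22 with these libraries to 0.22 ± 0.20 without them (edgeR adjusted p = 0.869 and 0.882). Ntrk2 differed by −0.17 ± 0.066 (edgeR adjusted p = 0.288) and by −0.23 ± 0.082 without libraries 1 and 2 (edgeR adjusted p = 0.453).

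After injury, the genotype comparison called 0 of the 9 members by edgeR, against 0.684% of all genes, and 0 by DESeq2 and limma-voom. At an unadjusted p under 0.05 stood 1 member, against 8.78% of all genes. Nefh was the one member without overlap, a property of 8.52% of all genes: it was 2717, 2223, 2547, 2504 and 2453 CPM in the wild-type CCI libraries, in order, against 3326, 2927 and 2762 CPM in knockout-labelled CCI libraries 2 to 4. The difference was 0.27 ± 0.16 on the log2 scale (edgeR adjusted p = 0.703). Annotated exons of the neighbouring gene Ap1b1, on the other strand, cover 21.1% of the exon bases of Nefh, and the strand setting of the counting is not given. Spp1 stood at 500, 414.3 and 368.1 CPM in the knockout-labelled libraries, against 491.7 to 651.1 in wild type. Only library 2 reached the wild-type range, and the difference was −0.40 ± 0.14 (edgeR adjusted p = 0.353). The summed macrophage markers overlapped here, with 125 to 162 CPM in knockout-labelled and 94.4 to 197 in wild-type CCI libraries, and 0 of the 12 were called.

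Over both treatments, the mean genotype effect called 0 of the 9 members, while 2.55% of all genes were called. At an unadjusted p under 0.05 stood 2 members, against 13.3% of all genes. Those 2 were Spp1 (−0.29 ± 0.096, edgeR adjusted p = 0.162) and Ntrk2 (−0.12 ± 0.049, edgeR adjusted p = 0.282). DESeq2 called Spp1 (−0.28, adjusted p = 0.0148) and limma-voom called 0. Without sham knockout-labelled libraries 1 and 2 the Spp1 difference was −0.20 (edgeR adjusted p = 0.519). Ret was called without sham knockout-labelled library 4 (0.17, edgeR adjusted p = 0.0316) and stood at 0.01 without libraries 1 and 2. Of the 18 other large-neuron genes edgeR called 0 for either genotype comparison or their mean, with Tafa1, a secreted protein of large neurons, nearest (0.26 ± 0.079 over both treatments, edgeR adjusted p = 0.0782). Myelin genes moved with the label in the same libraries: over both treatments the knockout label was lower in 9 and higher in 0 of 10 genes that mark myelinating Schwann cells. By smallest p the first 4 were Fa2h (−1.25 ± 0.11) and Ugt8a (−1.49 ± 0.15), enzymes of myelin lipid synthesis, and the myelin protein genes Pmp22 (−0.98 ± 0.086) and Mag (−0.76 ± 0.10). The summed level of the 10 genes was 10100 to 15200 CPM in the 10 wild-type libraries and 4640 to 7500 in the 7 knockout-labelled ones.

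Libraries of a group differed more in some members than in others. The SD of log2 CPM around the group means was 0.367 for Runx3, 0.338 for Pvalb, 0.236 for Etv1, 0.223 for Nefh and 0.20 for Spp1, against a median of 0.126 over the 9824 genes with a mean of at least 10 CPM. Ret (0.152), Ntrk3 (0.13), Calb1 (0.127) and Ntrk2 (0.105) were near that median. Pvalb ranged 2.01-fold and Runx3 3-fold over the 17 libraries, against 1.32-fold for Ntrk3. Sham wild-type library 3 was the lowest of its group in Pvalb, Runx3, Etv1, Spp1 and Nefh and the highest in Ret and Calb1. Relative to the group mean it lay at −0.64 on the log2 scale in Runx3, −0.55 in Nefh, −0.53 in Etv1 and −0.48 in Pvalb, and at 0.16 in Ret. Sham knockout-labelled library 4 went the other way, with 0.87 in Runx3, 0.55 in Pvalb, 0.29 in Etv1 and Spp1, 0.24 in Nefh, and −0.37 in Ret and −0.26 in Ntrk2. Sham knockout-labelled libraries 1 and 2 lay at −0.45 and −0.44 in Pvalb and at 0.21 each in Ret.

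**Figure D4:**
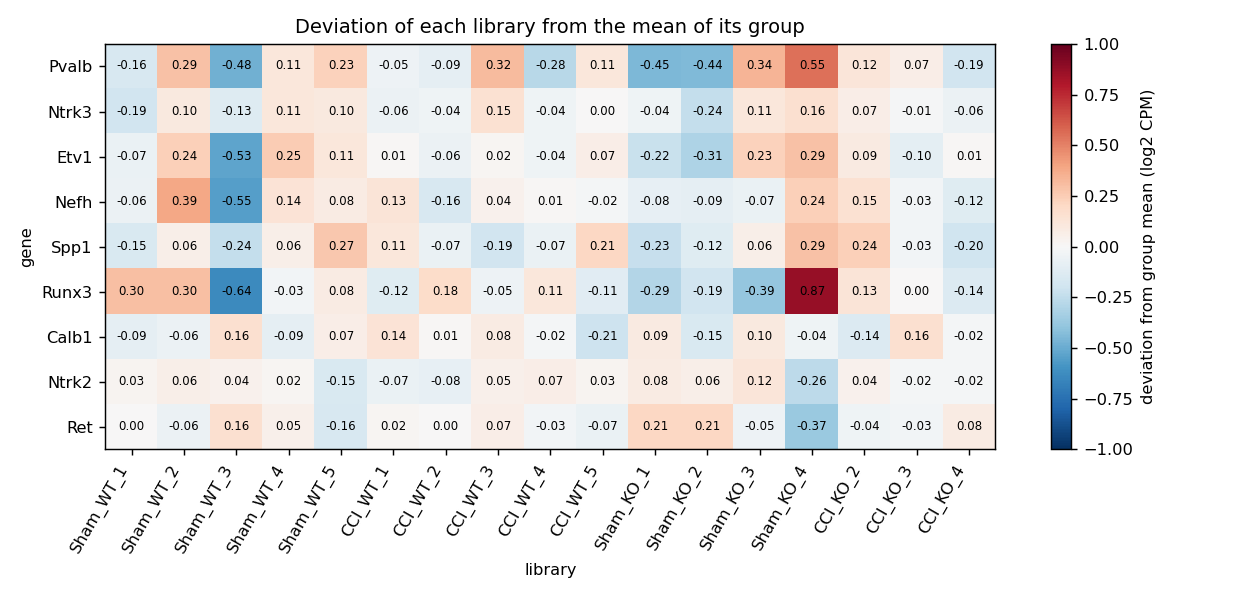
Deviation of log2 CPM from the mean of the library's own group for each marker (y axis) in each library (x axis); blue is below and red above the group mean. Sham_WT_3 is below its group in Pvalb, Etv1, Nefh and Runx3 and above it in Ret (0.16), and Sham_KO_4 shows the opposite pattern, with Runx3 at 0.87 and Ret at −0.37.

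Most proprioceptor markers varied together from library to library within the groups. Correlations were computed for the 36 pairs of members on deviations from the group means over the 17 libraries, with two-sided permutation tests within groups (100000 resamples) adjusted over the 36 pairs. All 10 pairs among Pvalb, Runx3, Ntrk3, Etv1 and Spp1 were positive, from 0.37 to 0.86, and so were the 5 pairs of these genes with Nefh, from 0.60 to 0.81; 5 of the 10 and 3 of the 5 had an adjusted p under 0.05. Pvalb and Ntrk3 had a Pearson r of 0.86 (Spearman 0.86, permutation p = 0.00059 and 0.00077, adjusted p = 0.00708 and 0.0104). Without the 2 libraries farthest in Pvalb, r was 0.90. Pvalb and Etv1 had an r of 0.86 as well (Spearman 0.87, permutation p = 0.00162 and 0.00145, adjusted p = 0.0123 and 0.0104), and 0.82 without the 2 farthest libraries.

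Ret had the opposite sign. All 6 pairs of Ret with Nefh and the proprioceptor markers were negative, from −0.80 to −0.56. Of these, 2, with Pvalb and Spp1, had an adjusted permutation p under 0.05 for Pearson's r. For Pvalb with Ret the adjusted permutation p was 0.0338 by Pearson and 0.072 by Spearman. Spp1 and Ret had an r of −0.80 (Spearman −0.81, permutation p = 0.00018 and 0.00122, adjusted p = 0.00648 and 0.0104), and −0.71 without the 2 libraries farthest in Spp1. Runx3 and Ntrk2 had an r of −0.63 (Spearman −0.40, permutation p = 0.139 and 0.175, adjusted p = 0.218 and 0.30), which dropped to −0.29 without the 2 libraries farthest in Runx3, so this relation rests on those libraries. The 8 correlations of Calb1 lay between −0.37 and 0.13, and none had an adjusted p under 0.05. In all, 10 of the 36 pairs had an adjusted permutation p under 0.05 for Pearson's r. The share among pairs of other genes was not computed. These counts of pairs therefore do not show a co-variation particular to the markers.

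Several correlations were smaller without a few sham libraries. When sham wild-type library 3 and sham knockout-labelled libraries 1, 2 and 4 were left out together, an alternative chosen after their values were seen, r over the remaining 13 libraries was 0.83 for Pvalb with Ntrk3, 0.53 for Pvalb with Etv1, 0.70 for Etv1 with Nefh and −0.73 for Spp1 with Ret. The 4 pairs of Runx3 with the other proprioceptor markers were then all negative, from −0.36 to −0.15, and Runx3 with Nefh was at 0.02, in a range of 0.02 to 0.70 for the 5 pairs with Nefh. The 6 pairs of Ret ranged from −0.73 to 0.01, with Pvalb and Runx3 at −0.24, Nefh at −0.17, Ntrk3 at −0.12 and Etv1 at 0.01. Runx3 with Ntrk2 went from −0.63 to 0.26. Of the 6 pairs of Ntrk2 with Nefh and the proprioceptor markers, all were negative over the 17 libraries and 5 were positive over the 13. The 10 pairs that passed kept their sign.

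**Figure D5:**
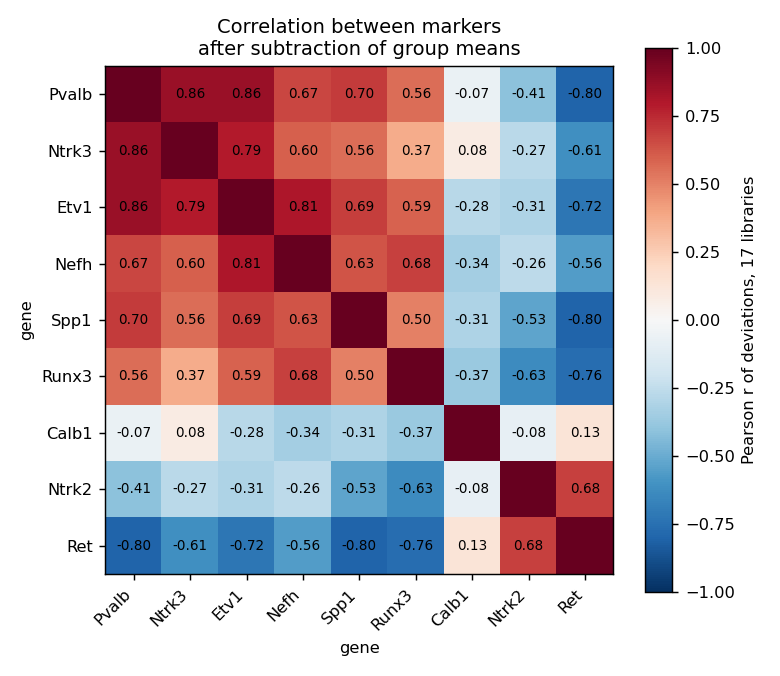
Pearson correlation between pairs of markers (both axes) of the deviations from group means over 17 libraries; red is positive and blue negative. Pvalb, Ntrk3, Etv1, Nefh and Spp1 form a red block (0.56 to 0.86), Ret is blue against them (−0.80 to −0.56), and Calb1 stays between −0.37 and 0.13.

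The genes whose deviations were most like each member's, among 11169 other protein-coding genes with a mean of at least 5 CPM, are given as a description. Nefh was closest to the other neurofilament chains, Nefm (r = 0.98) and Nefl (0.97). Pvalb was closest to Ldhb, a lactate dehydrogenase subunit also used as a marker of large neurons (0.96), and Sord, sorbitol dehydrogenase (0.94). Etv1 was closest to Hapln4, a link protein of the perineuronal and nodal matrix (0.94), and Cntnap2, a protein of the juxtaparanode beside the node of Ranvier (0.94). Ntrk3 was closest to Faim2 (0.89) and the calcium sensor Vsnl1 (0.87), Spp1 to the myelin protein Pllp (0.87) and the peptidase Mme (0.85), Ret to Agpat4 and Slc45a3 (both 0.94), Ntrk2 to Cpne2 (0.92) and Actr1a (0.91), and Calb1 to Atg16l1 (0.77) and Ccdc166 (0.76). Runx3 was closest to Hoxa10 (0.94), a homeobox gene of body position, and to Misp3 (0.91).

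Hoxa10 held 18.8, 20.3, 11.3, 18.3 and 19.0 CPM in the 5 sham wild-type libraries in order, 18.0 to 20.8 in CCI wild type, 9.79, 10.9, 8.93 and 18.5 in sham knockout-labelled libraries 1 to 4, and 16.7 to 20 in CCI knockout-labelled libraries. Runx3 in the same order held 8.65, 8.62, 4.47, 6.85 and 7.39 CPM, 7.08 to 8.74 CPM, 5.94, 6.37, 5.58 and 13.4 CPM, and 7.85 to 9.49 CPM. In both sham groups library 3 was the lowest in both genes, and library 4 was the highest of the sham knockout-labelled group in both.

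Skeletal muscle also makes parvalbumin. The summed level of 10 skeletal muscle markers was 1300 CPM in sham knockout-labelled library 3 and 6.12 to 342 CPM in the other 16 libraries. Pvalb in that library (106.1 CPM) lay below library 4 of the group (123.0 CPM), whose muscle level was 8.74 CPM. Sham wild-type library 3, low in Pvalb, held 266 CPM of muscle markers, the highest of its group. The summed unmyelinated neuron markers were 7550 CPM in sham wild-type library 3 and 7740 and 8370 CPM in sham knockout-labelled libraries 1 and 2, the 3 highest values of the 17, against 4440 to 7090 CPM in the other 14. In Ret, sham wild-type library 3 (646.7 CPM) and sham knockout-labelled library 2 (744.8 CPM) were the highest of their groups. The part of muscle or of the makeup of neuron types in these values was not tested.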

How the data were processed

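Bulk RNA was extracted with a PicoPure kit and sequenced from SMART-Seq v4 libraries, per the labels' protocols; this kind of kit does not mark strand. Tools named are bcl2fastq 2.20.0.422, STAR 2.7.11a and the build GRCm39, per the submitters' processing notes; the names of the count tables point to HTSeq, and no source used here gives its version or strand setting. The deposited values are raw counts per gene, 1 table per library, with no normalization. The 5 summary lines of each table were left out (no feature 4.03 to 4.55%, ambiguous 7.63 to 8.17% of counts). Of 78298 identifiers, 78168 matched GENCODE M39.

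Groups follow the labels. Within each group, no 2 libraries had counts alike within sampling noise. Pairs of libraries from different groups were not covered by this check. Counts were scaled by TMM (factors 0.983 to 1.03), filtered (minimum count 10, minimum total 15; 23972 genes tested) and fitted over all 17 libraries with edgeR's quasi-likelihood test, Benjamini-Hochberg adjusted p under 0.05 over all genes (edgeR 4.0.16, limma 3.58.1, DESeq2 1.42.0, R 4.3.3). The fit was tested on simulated data. A comparison is injury within a genotype label, genotype label within a treatment, their interaction, or the mean genotype effect. Correlations used log2 CPM (prior count 2). Levels carry counting error that is small at this depth; the number of libraries limits the precision.

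Named genes are the 9 members, Kcnk1 and Atf3, of each list the called genes (at most 4 per comparison by smallest p, or the 2 of smallest p where 0 were called), and for each member the 2 protein-coding genes with a mean of at least 5 CPM most like it. The members and gene lists were chosen with earlier results of these data known. Alternatives were other scalings, filters, tests and length measures, a replicate block, and leaving out libraries. Promoters are RefSeq's. Lists serve as context, and some called genes of the lists are not reported here.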

Additional observations from a re-analysis of the deposited data

Results flagged for a closer look

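In 5 of the 27 sets of 4 or 5 libraries checked, the highest or lowest library stood farther from the rest than Dixon's limit allows (0.829 of the range for 4 libraries, 0.71 for 5). Chance gives about 1 in 20 such sets, and the sets share libraries. Sham knockout-labelled library 4 accounts for 3 of them: Runx3 at 13.41 CPM against 5.578 to 6.37 in the other 3, Nefh at 2997 against 2382 to 2418, and Ntrk2 at 94.77 against 118.2 to 122.8. Ntrk3 stood at 149.9 CPM in CCI wild-type library 3 against 129.6 to 135 in the other 4, and Ntrk2 at 115 CPM in sham wild-type library 5 against 129.1 to 133.3.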

How the results depend on the processing

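The 54 member differences gave 1386 values under the alternatives. Of these, 0 lost a call, 0 called values reversed, 9 passed only in an alternative, and 49 uncalled values had another sign. After injury in wild type 2 members were called instead of 1 with pan-neuronal scaling, DESeq2, limma-voom or the 2 groups alone, and 1 to 2 when 1 library was left out. For the mean genotype effect DESeq2 called 1 instead of 0. Leaving out 1 library gave 0 to 1 called member for genotype in sham and for the mean genotype effect, and 0 for the other 3 comparisons. The number of genes called over all alternatives ran from 423 to 1822 (733 in the main design) for injury in wild type, 0 to 224 (20) for injury in knockout-labelled, 37 to 702 (240) for genotype in sham, 18 to 452 (164) for genotype in CCI, 0 to 77 (0) for the interaction and 396 to 1112 (612) for the mean effect. Same-numbered libraries did not deviate together throughout (r from −0.07 to 0.40), so the numbers were not taken as pairs. The libraries numbered 3 were positive in each comparison of 2 groups (0.14, 0.17, 0.37 and 0.40). Those numbered 4 reached 0.39 for injury in wild type. Whether same-numbered libraries share an origin was not tested. With the replicate block 775, 46, 139, 91, 0 and 402 genes were called, in the order of comparisons given above. Members called were 1, 0, 0, 0, 0 and 0. Pan-neuronal scaling moved the median of all genes to −0.13 (injury in wild type) and −0.10 (knockout-labelled). Per kb of the longest transcript, sham wild-type levels were 102 for Ret, 169 for Spp1, 23.6 for Calb1, 23.1 for Etv1, 14.1 for Ntrk2, 7.64 for Ntrk3 and 1.85 CPM per kb for Runx3. The correlations without 4 sham libraries were added after seeing the data.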
